A study of Homo sapiens with 8 samples.

Results

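miR-490-3p is a microRNA, a short RNA that a protein complex of the Argonaute family uses to find partly complementary messenger RNAs and to lower their amount or their translation. Here 10 genes that have been named as its targets, called members below, were followed over 8 arrays, each of which compared transfected cells of a human cancer line with mock cells of that line. Members were found by their gene name in the array annotation, leaving out control spots, which gave 11 probes for 10 genes, out of 58201 probes and 42072 named genes on the array. Of these members, 6 were named in earlier publications, TNKS2, RAB14 and TGFBR1 in colorectal cancer and ERGIC3, SMARCD1 and AKT1 in other tissues. This set does not hold every published target. VDAC1, which the study cites as a target in colorectal cancer and also lists among its own candidates, was not followed here. The other 4 members, GPRIN2, RAB11FIP1, SORL1 and MZT1, are part of a longer list of candidates proposed by the study. The study joined sites predicted by sequence, genes lowered on its own miR-490-3p array and genes raised in colon cancer tissue. A low ratio on that array was thus a condition, so the values of these 4 members on it are a description and not independent evidence of a response.

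Mock cells, which the labels give as not transfected, were read in the green dye Cy3, and cells transfected by a lipid reagent in the red dye Cy5. The colorectal cancer line HCT116 received either strand of miR-490 (miR-490-3p or miR-490-5p, 1 array each). The renal cancer lines A498 and 786-O received either strand of miR-139 (miR-139-5p or miR-139-3p, 1 array per line and strand), and the breast cancer line MDA-MB-231 received 1 of the small interfering RNAs si-GINS1_1 and si-GINS1_2 against GINS1 (1 array each, called siRNA 1 and siRNA 2). The labels name no array with a control oligonucleotide, so a response to transfection itself and a response to the transfected RNA cannot be told apart within 1 array. Replicates of the miR-139 groups were cell lines and replicates of si-GINS1 were different siRNAs, and the labels do not say that any were separate cultures of 1 condition. All values are log2 ratios of transfected over mock unless stated, with 0 for no difference and -1 for a halved signal.

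A microRNA finds its targets mainly through its seed, bases 2 to 8 counted from its 5′ end. Both strands of the miR-490 hairpin were transfected, and their sequences are shown because the comparison in HCT116 is between strands whose seeds, in capitals, differ. The sequences are from RefSeq on GRCh38.p14, at chr7:136903242-136903263 and chr7:136903205-136903224, both on the plus strand.
miR-490-3p: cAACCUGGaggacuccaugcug
miR-490-5p: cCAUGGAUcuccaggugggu
The seeds of miR-139-5p (CUACAGU) and miR-139-3p (GGAGACG), used on the renal arrays, are different again. A messenger RNA that pairs with bases 2 to 8 of miR-490-3p holds the word CCAGGTT, and one that pairs with bases 2 to 7 and has an A opposite base 1 holds CAGGTTA. Neither word was present, on either strand, in any of the 11 member probes, each 60 bases long, while 0.39% of all probes on the array held CCAGGTT and 0.23% held CAGGTTA on the strand the annotation gives. The words share 6 bases, so a probe can hold both. The probes therefore measured these transcripts at places other than such a site, and the words say nothing of sites elsewhere in the transcripts, whose sequence was not used here.

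The member probes read well above background, by the flag of the scanner software, in both channels on all 8 arrays, except those of SORL1 and GPRIN2, which were not well above background in either channel on both 786-O arrays. Each member probe was a single spot, and none was flagged or saturated. Per array, 24983 to 29688 probes passed that flag in a channel or in both. GINS1, the target of both siRNAs, lay at -1.31 with siRNA 1 and -1.92 with siRNA 2, and between -0.11 and 0.55 on the other 6 arrays. In mock HCT116 cells 6 of 10 markers of colorectal epithelium were well above background in both mock channels, and VIL1, CDH17 and LGALS4 were not in either. Of the same 10 markers, 5 were well above background in MDA-MB-231 and 4 each in A498 and 786-O. In A498 and 786-O 5 of 6 renal tubule markers were well above background, against 3 in HCT116 and 2 in MDA-MB-231. In MDA-MB-231 5 of 5 mesenchymal markers were, as they also were in the other lines. Each list thus had markers above background in other lines too. Of 4 genes listed as absent from MDA-MB-231, ESR1, ERBB3 and GATA3 carried the flag in its mock channels and PGR did not.

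With miR-490-3p, the proposed members had lower ratios than most of the published ones, which follows from their choice on this array and is no finding. The median log2 ratio was -0.93 over the 4 proposed members, between -1.05 and -0.59, and -0.13 over the 6 published members, between -0.62 and 0.06. The median over all 21365 genes well above background on that array was 0.01. One member in 10, RAB11FIP1, reached the limit of size used here, a log2 ratio at or below -1, which 0.665% of all genes reached. In all, 8 of 10 members were below 0, against 48.1% of all genes, but 4 of these were proposed for being low on this array, and of the published members 4 of 6 were below 0. No member reached 1, which 0.412% of all genes did. A single array has no spread of its own, so no test was run. The split of genes at or beyond the limit depended on the scaling, with 142 lower and 88 higher here, 70 lower and 253 higher after median centring, and 843 lower and 868 higher in the scanner log ratio.

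**Figure D1:**
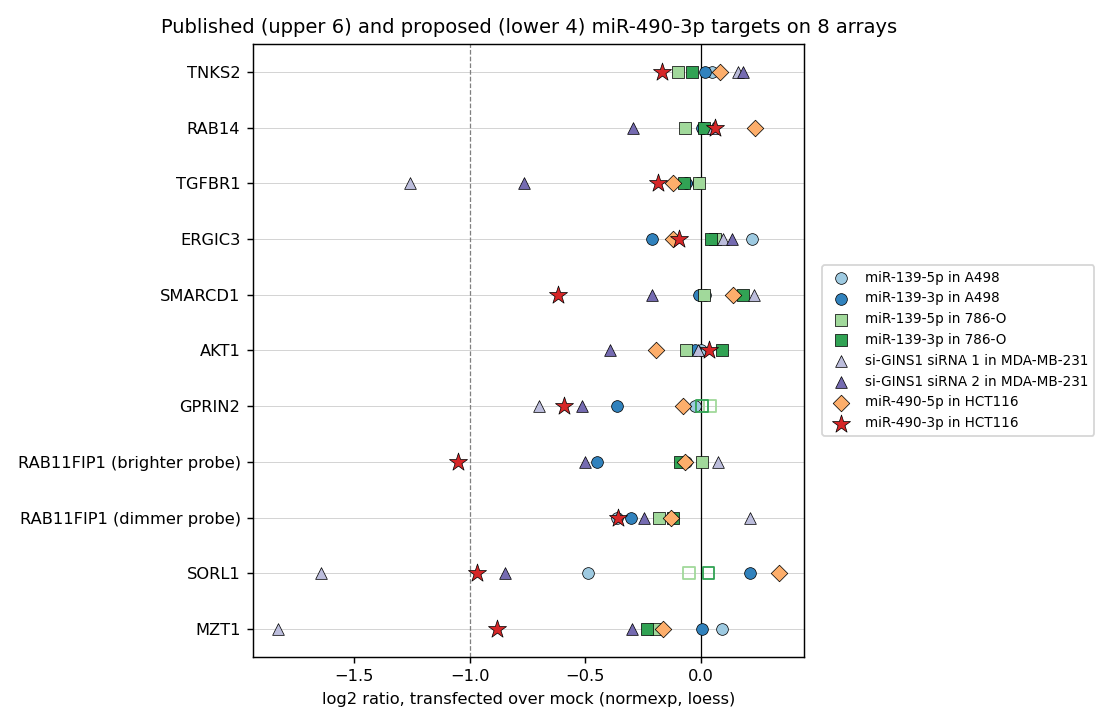
Log2 ratio of transfected over mock (horizontal axis) for each member probe (vertical axis), with 1 point per array, normexp and loess corrected, no error bars since each point is 1 spot; open symbols mark probes not well above background. The red stars of miR-490-3p lie left of all other arrays for TNKS2, SMARCD1 and the brighter RAB11FIP1 probe, while for TGFBR1, GPRIN2, SORL1 and MZT1 at least 1 si-GINS1 array lies further left.

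Among the members of membrane traffic, RAB11FIP1 and SORL1 were low with miR-490-3p, and RAB14 and ERGIC3 were near 0. RAB11FIP1, an adaptor that ties the recycling endosome GTPase RAB11 to its cargo, had a brighter probe (NM_001002814, hg19 chr8:37718236-37718295, minus strand) and a dimmer one (NM_025151, hg19 chr8:37756610-37756669, minus strand). In A498 the brighter RAB11FIP1 probe read -0.06 after miR-139-5p and -0.45 after the 3p strand, in the same order 0.00 and -0.09 in 786-O, 0.07 and -0.50 with siRNA 1 and siRNA 2, -0.07 with miR-490-5p, then -1.05 with miR-490-3p. It was thus lowest on the miR-490-3p array, where mock signal was 2.07 times that of transfected cells. Here and below the renal values are given as the 5p strand, then the 3p strand. The dimmer RAB11FIP1 probe read -0.36 and -0.30 in A498 cells, -0.18 and -0.12 in 786-O, 0.21 and -0.24 with the siRNAs, -0.13 with miR-490-5p, then -0.36 with miR-490-3p. Its miR-490-3p value lay within the range of the other arrays, so the probes of this gene, which are annotated to different transcripts, did not give the same picture.

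SORL1 is a sorting receptor of the endosome and Golgi that belongs to both the low-density lipoprotein receptor and the sortilin families. Its probe (NM_003105, hg19 chr11:121500247-121500306, plus strand) read -0.49 and 0.21 in A498 cells, -1.64 with siRNA 1 and -0.85 with siRNA 2, 0.34 with miR-490-5p, then -0.97 with miR-490-3p. The miR-490 arrays were on opposite sides of 0, and the lowest SORL1 value of the series was on an si-GINS1 array. RAB14, a GTPase of traffic between endosomes and the Golgi (NM_016322, hg19 chr9:123940418-123940477, minus strand), read 0.01 and 0.00 in A498 cells, -0.07 and 0.01 in 786-O, 0.05 and -0.30 with the siRNAs, 0.23 with miR-490-5p, then 0.06 with miR-490-3p. ERGIC3, a cargo receptor that cycles between the endoplasmic reticulum and the Golgi (NM_015966, hg19 chr20:34136265-34136324, plus strand), read 0.22 and -0.21 in A498 cells, 0.06 and 0.04 in 786-O, 0.09 and 0.13 with the siRNAs, -0.12 with miR-490-5p, then -0.09 with miR-490-3p. For both genes the miR-490-3p value lay within the range of the other arrays, and that of ERGIC3 turned to 0.17 after median centring.

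SMARCD1, a subunit of the SWI/SNF complexes that reposition nucleosomes, was the published member with the lowest ratio. Its probe (NM_139071, hg19 chr12:50494275-50494334, plus strand) read 0.02 and -0.01 in A498 cells, 0.01 and 0.18 in 786-O, 0.23 and -0.21 with the siRNAs, 0.14 with miR-490-5p, then -0.62 with miR-490-3p. The miR-490-3p value was below all 7 other arrays, the next lowest being siRNA 2 at -0.21. MZT1, a small protein of the gamma-tubulin ring complex that starts microtubules at the spindle (NM_001071775, hg19 chr13:73282634-73282693, minus strand), read 0.09 and 0.00 in A498 cells, -0.20 and -0.23 in 786-O, -1.83 and -0.30 with the siRNAs, -0.16 with miR-490-5p, then -0.88 with miR-490-3p. Its lowest value was on the siRNA 1 array, and the siRNA arrays differed from each other by more than any other pair of arrays of 1 cell line did for this gene.

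TNKS2 is a tankyrase, an enzyme that adds ADP-ribose chains to axins and other proteins and so takes part in Wnt signalling. The TNKS2 probe (NM_025235, hg19 chr10:93624141-93624200, plus strand) read 0.05 and 0.02 in A498 cells, -0.10 and -0.04 in 786-O, 0.16 and 0.18 with the siRNAs, 0.08 with miR-490-5p, then -0.17 with miR-490-3p. It was lowest with miR-490-3p, though by a small amount, and it was a dim probe, with a brightness of 41.1 in mock cells and 34.7 in transfected cells over a local background of 13.5 and 16 on that array.

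The signalling members GPRIN2, TGFBR1 and AKT1 all lay within the range of the other arrays with miR-490-3p, GPRIN2 being the lowest of them. GPRIN2 binds activated G protein alpha subunits. Its probe (NM_014696, hg19 chr10:47000509-47000568, plus strand) read -0.02 and -0.36 in A498 cells, -0.70 and -0.51 with the siRNAs, -0.08 with miR-490-5p, then -0.59 with miR-490-3p. TGFBR1, the type I receptor kinase for TGF-beta (NM_004612, hg19 chr9:101916322-101916381, plus strand), read -0.01 and -0.06 in A498 cells, -0.01 and -0.07 in 786-O, -1.26 and -0.77 with the siRNAs, -0.12 with miR-490-5p, then -0.18 with miR-490-3p. Both genes were lower on an si-GINS1 array than on the miR-490-3p array. AKT1, a growth and survival kinase downstream of PI3K (NM_005163, hg19 chr14:105235975-105236034, minus strand), read 0.00 and -0.03 in A498 cells, -0.06 and 0.09 in 786-O, -0.01 and -0.39 with the siRNAs, -0.19 with miR-490-5p, then 0.03 with miR-490-3p, the second highest of its 8 values.

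The brightness before any correction shows how much signal these ratios rest on. On the miR-490-3p array the brighter RAB11FIP1 probe read 269 in mock and 132 in transfected cells, against 272 and 275 on the miR-490-5p array. SORL1 read 840 and 513 with miR-490-3p, against 850 and 1208 with miR-490-5p. Both genes thus had nearly the same mock brightness on the HCT116 arrays and differed in the transfected channel. MZT1 read 434 and 266 with miR-490-3p and 474 and 456 with miR-490-5p, and SMARCD1 312 and 229 against 302 and 363. GPRIN2 read 51.6 and 24.3 with miR-490-3p, the latter over a local background of 17, against 53.9 and 49.3 with miR-490-5p. Its ratio on the miR-490-3p array therefore rests on a transfected signal close to background.

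**Figure D2:**
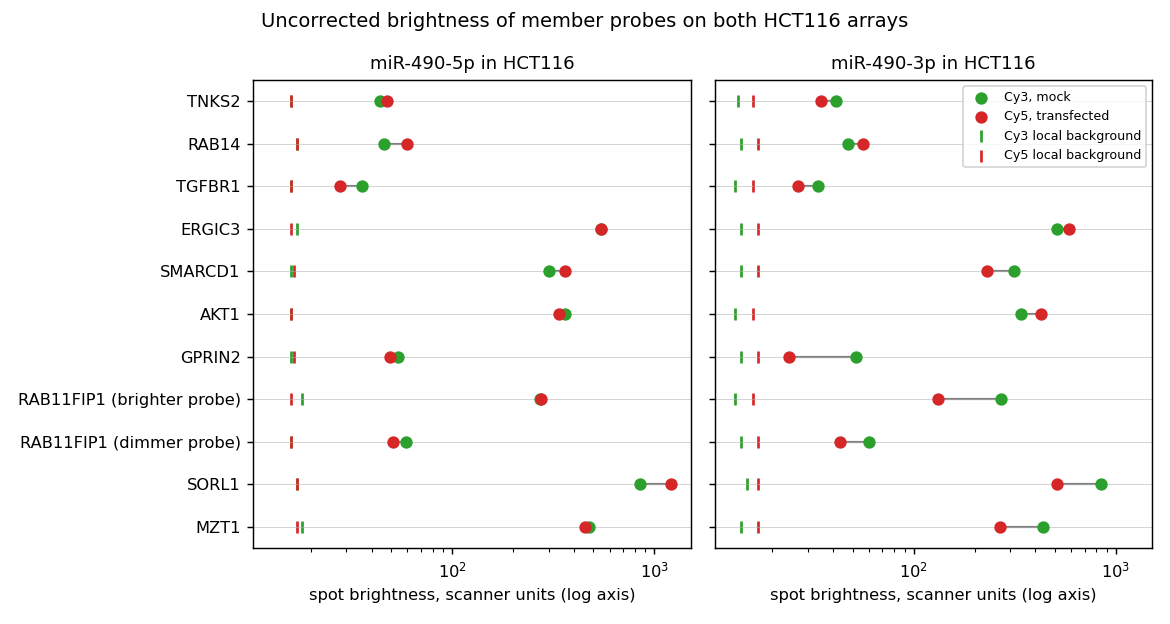
Uncorrected spot brightness in scanner units on a log axis (horizontal) for each member probe (vertical) on the miR-490-5p array (left) and the miR-490-3p array (right), with green points for mock Cy3, red points for transfected Cy5 and ticks for each spot's local background. On the right, red lies left of green most widely for GPRIN2, RAB11FIP1, SORL1 and MZT1, and TNKS2, RAB14, TGFBR1, GPRIN2 and the dimmer RAB11FIP1 probe lie nearest to background.

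The strands were set against each other to ask whether a member was lower with miR-490-3p than with the other strand of the same hairpin in the same line. The log2 difference, miR-490-3p minus miR-490-5p, was -1.31 for SORL1, -0.98 for RAB11FIP1, -0.76 for SMARCD1, -0.72 for MZT1 and -0.51 for GPRIN2. These were the members with the widest differences, and for SORL1 part of it was its ratio of 0.34 with miR-490-5p. Smaller differences were found for TNKS2 at -0.25, RAB14 at -0.17, TGFBR1 at -0.06, ERGIC3 at 0.03 and AKT1 at 0.23. A difference at or below -1 was found for 1 of 10 members, against 0.443% of 20326 genes, and a difference below 0 for 8 of 10, against 50.3%, with 4 of the 6 published members among them. The median difference was -0.85 over the proposed members, -0.12 over the published members and 0.00 over all genes. A low ratio on the miR-490-3p array was a condition for the proposed members, and that array enters this difference too.

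As a scale for these differences, the mock channels of the HCT116 arrays were compared, where no transfection took place. The mock level of a member probe differed between those arrays by -0.08 to 0.08 log2 units, and the SD of that difference was between 0.05 and 0.09 over the 500 probes closest to each member in brightness. Taken in either direction, the strand difference was wider than that SD for 9 of 10 members, against 76.6% of all genes by the same measure. It was over 3 times as wide for 6 of 10, against 39.9% of all genes, so a difference of that size was common on these arrays. Those 6 hold all 4 proposed members, for which a low ratio on the miR-490-3p array was a condition. Of the 6 published members, 5 had a difference wider than that SD, among them AKT1, which was higher with miR-490-3p. A difference over 3 times as wide was found for 2 of them (33.3%), SMARCD1 and TNKS2. The labels do not say whether the mock channels held the same extract, so what this spread covers beyond the arrays is not known, and the spread between transfections is not in it. That SD also comes from the Cy3 channels alone, while the strand difference is between ratios of both channels, so the measures are not alike. When the transfected channels were compared directly, without the mock, the difference was -1.29 for SORL1, -0.87 for RAB11FIP1, -0.77 for MZT1, -0.65 for SMARCD1, -0.42 for GPRIN2 and -0.20 for TNKS2.

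Against the 6 arrays of the other lines, the miR-490-3p ratio was below all 6 for 3 of 10 members, TNKS2, SMARCD1 and RAB11FIP1, and below all 7 other arrays for these same 3. Over all genes well above background on every array, 19.7% were below all 6 and 15.1% below all 7. The difference from the median of the 6 arrays was -0.97 for RAB11FIP1, -0.70 for SORL1, -0.67 for MZT1, -0.64 for SMARCD1, -0.40 for GPRIN2 and -0.20 for TNKS2. No member reached -1 here, which 0.664% of genes did, and 8 of 10 were below 0, against 49.7% of genes, with 4 of the 6 published members among them. In an alternative chosen after seeing the data, which left out the si-GINS1 arrays, 5 of the 8 members well above background on every array were below the remaining 4 renal arrays, against 32.6% of genes, and of the 6 published members 3 were. The arrays left out held values of TGFBR1 and MZT1 lower than on the miR-490-3p array. RAB11FIP1 and MZT1, which are among the 5, were proposed for a low ratio on the miR-490-3p array. That condition enters every count over all members in this comparison, so these counts are a description. For SORL1 and GPRIN2 the counts over 10 members and medians include 786-O values that were not well above background. In this comparison cell line and transfected RNA cannot be told apart.

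How low a member appeared depended on the background correction, most of all for dim probes. The correction used here adds an offset of 50 to both channels, which draws the ratios of dim probes toward 0. GPRIN2 moved from -0.59 to -1.34 with an offset of 10 and to -2.31 in the scanner log ratio, TGFBR1 from -0.18 to -0.46 and -0.84, and TNKS2 from -0.17 to -0.36 and -0.54. For the bright probes the same changes were smaller, with SORL1 moving from -0.97 to -1.07 under either alternative. All 4 proposed members were at or below -1 in the scanner log ratio, with an offset of 10, and without background subtraction, and none was after median centring. Their scanner log ratios equal the log2 fold changes that the study lists for these genes. Low ratios on this array were a condition for the choice of the proposed members, so these counts follow from it and are no finding. The share of all genes at or below -1 moved too, from 0.665% to 3.95% in the scanner log ratio, 1.32% with an offset of 10 and 1.19% without background subtraction. None of the 6 published members followed here reached -1 under any of the 5 corrections, which says nothing of published targets outside this set.

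**Figure D3:**
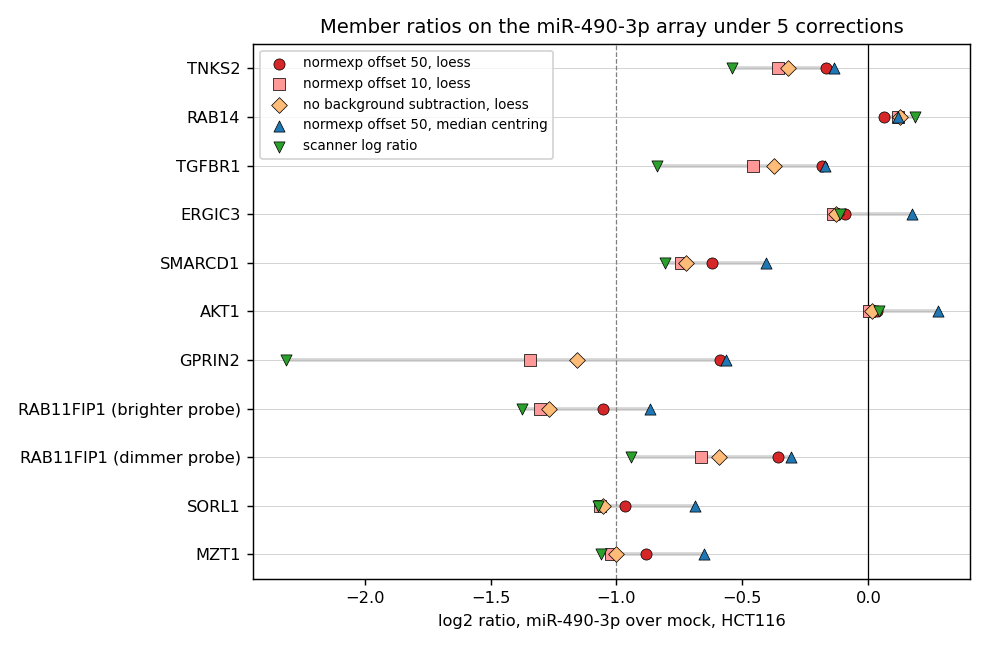
Log2 ratio of miR-490-3p over mock in HCT116 (horizontal axis) for each member probe (vertical axis), with 1 point for each of 5 corrections and a grey bar over their range; the dashed line marks -1. The range is widest for GPRIN2, from -2.31 to -0.57, and narrow for RAB14, and median centring gives the highest value for 10 of 11 probes.

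The other transfections were tested to see whether members move with an RNA that is not miR-490. With si-GINS1, 3 of 11 member probes were called lower and 0 higher by limma (adjusted p under 0.05), against 3.63% lower and 3.33% higher among 27798 probes tested (6.96% in either direction). That split moved with the scaling, from 1009 lower and 925 higher here to 285 and 2690 after median centring, 980 and 535 with an offset of 10 and 59 and 16 in the scanner log ratio. TGFBR1 fell by 1.01 ± 0.35 (SD, n = 2 arrays) log2 units, with an SE of 0.12 and a limma adjusted p of 0.0232. SORL1 fell by 1.25 ± 0.56 (SD, n = 2), with an SE of 0.21 and a limma adjusted p of 0.0433. GPRIN2 fell by 0.61 ± 0.13 (SD, n = 2), with an SE of 0.10 and a limma adjusted p of 0.0426. Each was lower than mock with both siRNAs, and GPRIN2 and SORL1 were among the genes proposed from the miR-490-3p array. The SEs and adjusted p come from the fit of all 8 arrays, so they also rest on spread between the renal lines. There the TGFBR1 SD was 0.0033 with the 5p strand of miR-139 and 0.0066 with the other. Its renal mock brightness was 27.1 to 31.5 over a background of 14, where the offset of 50 draws ratios toward 0. For GPRIN2 and SORL1 this spread holds 786-O values not well above background. The adjusted p therefore does not by itself measure how alike the siRNAs were. TGFBR1 in the mock channels of MDA-MB-231 had a brightness of 110 and 114, and 36.2 and 61.7 after siRNA 1 and siRNA 2.

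MZT1 averaged -1.06 ± 1.08 (SD, n = 2), and its limma adjusted p of 0.156 missed the threshold, with a 95% interval from -2.00 to -0.12. TNKS2 averaged 0.17 ± 0.02 (SD, n = 2) with a limma adjusted p of 0.139. The other members averaged between -0.21 and 0.11. The calls depended on the fit. None of them passed with the scanner log ratio, with a robust prior and variance trend (limma adjusted p from 0.0574 to 0.0816), or when the si-GINS1 arrays were fitted alone (limma adjusted p of 0.523 for each), and without siRNA 1 there were 6 calls, which then also held RAB11FIP1 (brighter probe), RAB14 and AKT1, and without siRNA 2 there were 4, which also held MZT1. GPRIN2 also missed it after median centring (limma adjusted p of 0.0517), and GPRIN2 and SORL1 without a filter on dim probes (limma adjusted p of 0.0635 and 0.0710). GINS1 itself missed the threshold in the 3 fits in which no member passed.

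With miR-139-5p and miR-139-3p, 0 of 9 member probes tested were called by limma, against 0.0129% and 0.0% of all probes, and 0 were at an unadjusted p under 0.05. Over all probes 591 of 23286 and 1012 of 22810 were at that unadjusted level, so a count of 0 among 9 does not set the members apart. Mean member ratios were between -0.27 and 0.14 with miR-139-5p and between -0.27 and 0.09 with miR-139-3p. SORL1 and GPRIN2 were not tested with either strand, since they were not well above background in 786-O.

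The level of each member in mock cells shows what was there to be lowered. Levels are log2 Cy3 signal after quantile normalization over all arrays, on a scale that holds for 1 probe across lines but not between probes. SORL1 varied most, at 10.20 in MDA-MB-231, 9.37 in HCT116 and 7.90 in A498 (means of the mock channels of a line), and was not well above background in 786-O. GPRIN2 was highest in A498 at 7.37, followed by MDA-MB-231 at 6.81 and HCT116 at 6.33, and was not well above background in 786-O. SMARCD1 was highest in HCT116 at 8.09, then 7.74 in MDA-MB-231, 7.34 in A498 and 7.16 in 786-O. In these genes the mock channels of neighbouring lines in the order did not overlap, and no order was set for a line below background.

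TGFBR1 was highest in MDA-MB-231 at 6.92, and its levels of 6.11 in A498, 6.10 in 786-O and 6.06 in HCT116 were close together, with A498 and 786-O overlapping. AKT1 ran from 8.54 in MDA-MB-231 through 8.38 in 786-O and 8.24 in HCT116 to 7.89 in A498. ERGIC3 ran from 9.47 in 786-O through 9.20 in MDA-MB-231 and 9.06 in A498 to 8.74 in HCT116. The brighter RAB11FIP1 probe read 8.04 in A498 and 7.93 in HCT116, which overlapped, 7.48 in MDA-MB-231 and 7.24 in 786-O, and its dimmer probe 6.74 in A498, 6.42 in HCT116, 6.34 in 786-O and 6.29 in MDA-MB-231. MZT1 was highest in HCT116 at 8.54, then 8.35 in 786-O, with MDA-MB-231 at 8.20 and A498 at 8.17 overlapping. RAB14 lay between 6.01 and 6.24 and TNKS2 between 6.18 and 6.44, both narrow ranges, with RAB14 highest in HCT116. The mock channels of a line differed by at most 0.19 log2 units for any member probe, and they may hold the same extract. With each channel centred on its median in place of quantile normalization, the highest line stayed so for 9 of 11 probes, and became MDA-MB-231 for ERGIC3 and HCT116 for the brighter RAB11FIP1 probe, while the order of the other lines moved for several probes. Cell number and RNA per cell cannot be told apart in such bulk samples.

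**Figure D4:**
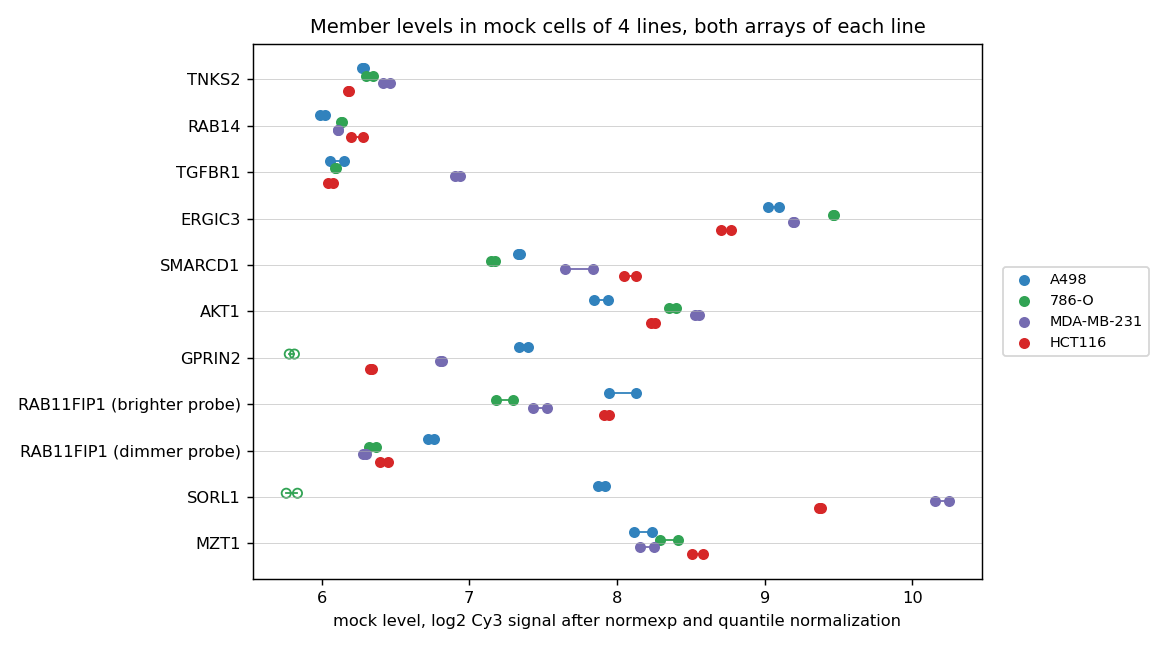
Mock level of each member probe (vertical axis) as log2 Cy3 signal after normexp and quantile normalization (horizontal axis), with a pair of points per cell line for its arrays joined by a line; open circles mark probes not well above background. SORL1 spans the widest range, from background in 786-O to 10.20 in MDA-MB-231, and levels are comparable between lines for 1 probe, not between probes.

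Other genes of the members' pathways lay on both sides of 0 on the miR-490-3p array. Of 135 genes in 9 lists, 134 had a probe and 128 were well above background, and their median log2 ratio was 0.03, beside 0.01 for all genes (0.20 and 0.08 after median centring). In all 57 of 128 were below 0, beside 48.1% of all genes, 1 was at or below -1 and 1 was at or above 1. The gene past -1 was GNAZ, a G protein alpha subunit listed with the GPRIN family, at -1.13 on its brighter probe and 0.00 on its other probe. The gene past 1 was EHD1, an ATPase of endosomal recycling, at 1.42, which was also at 0.99 with miR-490-5p.

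By list, the median was 0.07 over 12 genes around tankyrase and axin, from TERF1, a telomere protein, at -0.51 to AXIN2, a Wnt scaffold, at 0.66. It was 0.15 over 20 genes of RAB recycling, where the small GTPase RAB13 was lowest at -0.68, and -0.11 over 14 genes of carriers between the endoplasmic reticulum and the Golgi, from TMED2 at -0.85 to TMED9 at 0.29, both cargo receptors of the p24 family. TMED2 read -0.52 with miR-490-5p. Among 16 TGF-beta genes the median was 0.07, with SKIL, a repressor of SMAD proteins, at -0.25 and TGFBR2, the partner receptor of TGFBR1, at 0.94. The TGFBR2 value was that of the brightest probe, and another of its probes read 0.09.

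SWI/SNF subunits had a median of -0.04 over 18 genes, from SMARCD3, a paralog of SMARCD1, at -0.57 to BRD9 at 0.43, a bromodomain subunit. The remaining medians were 0.06 over 18 genes of PI3K and AKT signalling (FOXO1 at -0.22, FOXO3 at 0.46, both transcription factors that AKT restrains), 0.12 over 11 genes of the gamma-tubulin ring (NEDD1 at -0.19, TUBGCP5 at 0.33), 0.01 over 13 genes of retromer and sortilins (VPS29, a retromer subunit, at -0.28, and the protease BACE1 at 0.62) and -0.03 over 6 genes of the GPRIN family and G proteins (CDC42, a small GTPase of cell polarity, highest at 0.60). Where a gene had several probes they could disagree, with the highest TERF1 probe at 0.02, the lowest BACE1 probe at 0.06 and the lowest CDC42 probe at -0.05. Every list held genes on both sides of 0.

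**Figure D5:**
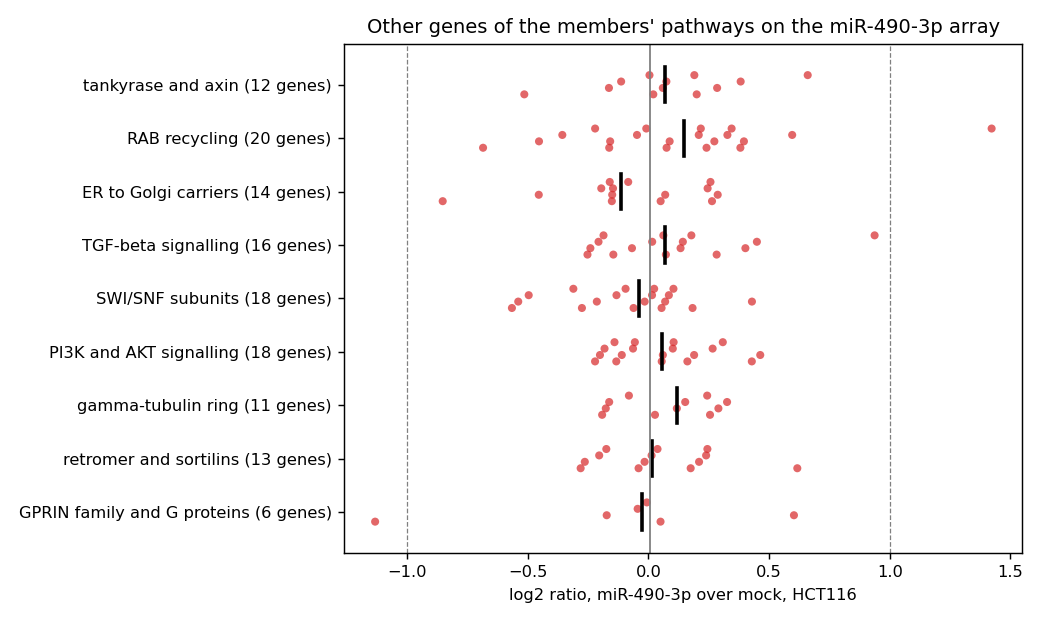
Log2 ratio of miR-490-3p over mock in HCT116 (horizontal axis) for the genes of each pathway list that were well above background (1 point per gene, members left out), with black bars at list medians, a grey line at the median of all genes and dashed lines at -1 and 1. Medians lie between -0.11 and 0.15, and GNAZ and EHD1 are the genes past the dashed lines.

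With si-GINS1, 3 of 129 pathway genes tested were called lower and 5 higher by limma, beside 6.96% of all probes in either direction, and with either miR-139 strand 0 were. As for the members, these calls depended on the fit, and 0 of all probes passed with a robust prior and variance trend or when the si-GINS1 arrays were fitted alone. The lower ones, named after their values were seen, were BMPR2, a receptor for bone morphogenetic proteins, and SMURF2, a ubiquitin ligase, both in the TGF-beta list, and SMARCB1, a SWI/SNF subunit. They averaged -0.90, -0.37 and -0.46 across both siRNAs. The higher ones were RAB11FIP3 at 0.32, RAB4A at 0.27, TMED2 at 0.58, BRD9 at 0.48 and SNX27 at 0.32.

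RAB11FIP1 was the member with the lowest ratio on the miR-490-3p array among those well above background on all 8 arrays, so genes with a like pattern were sought for its brighter probe. Over 15969 other genes, the smallest root mean square distances across the 8 arrays were 0.15 for P2RX4, an ATP-gated ion channel, 0.18 for MCRS1 and 0.18 for LUZP6. Their ratios with miR-490-3p were -0.72, -0.74 and -0.76, against -1.05 for RAB11FIP1, while those on the miR-490-5p array were -0.10, 0.01 and 0.06. With miR-139-3p in A498, where RAB11FIP1 read -0.45, they read -0.59, -0.24 and -0.34. This likeness is a description over 8 arrays, which share a slide by the barcode in the file headers.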

How the data were processed

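The members and gene lists were chosen with earlier results of these data known. Scans were processed by the authors, per the file headers, with Agilent Feature Extraction 11.5.1.1. They deposited intensity columns (mean spot brightness and median local background per channel, linear and not normalized) and a log10 ratio of Cy5 over Cy3 with the scanner's own corrections, which the deposited series table repeats. The latter was converted to log2 and is called the scanner log ratio. Intensities were corrected with normexp (offset 50) and loess within each array in limma 3.58.1 under R 4.3.3, leaving out control and flagged spots, and a probe's spots were averaged. Dyes were not swapped. Probe names followed the RefSeq accession where it matched (31104 of 33080 probes), and the probe with the highest mean intensity stood for a gene. Positions are those of the array annotation (hg19); exon and UTR boundaries were not used. Groups with 2 arrays were tested with limma against 0 in a model of the 8 arrays with a coefficient for each of 5 groups (3 residual df), with Benjamini-Hochberg adjustment, on probes that passed the background flag in either channel throughout the group. Groups with 1 array were not tested, and a log2 ratio of 1 in either direction was the rule of size. Named were all members, pathway genes past that limit, the lowest and highest of each list, GINS1, and the 3 genes nearest in pattern to the lowest member. Steps were checked on simulated data. Python 3.11.15, numpy 2.4.6, pandas 2.3.3 and matplotlib 3.10.9 were used. The number of arrays limits the precision.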

Additional observations from a re-analysis of the deposited data

Results flagged for a closer look

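With miR-139 strands, the renal lines lay on opposite sides of 0 for a pair of members. The share of all genes that did so is not given here, so this count has no scale. TNKS2 read 0.05 and 0.02 in A498 and -0.10 and -0.04 in 786-O, so that the mean in A498 was 0.10 log2 units above that in 786-O. MZT1 read 0.09 and 0.00 in A498 and -0.20 and -0.23 in 786-O, which put A498 0.26 higher. Between the lines the closest arrays were 0.06 apart for TNKS2, a dim probe, and 0.20 apart for MZT1. The difference between the lines was not tested, and the arrays of a line may share a mock extract, whose part in it was not tested. Under the other corrections the difference was between 0.14 and 0.44 for TNKS2 and between 0.30 and 0.40 for MZT1.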

How the results depend on the processing

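No paired analysis was possible because each tested group was set against 0 and not against another group, the miR-490 strands have 1 array each, and the replicate numbers used here only name arrays. Medians over all, published and proposed members on the miR-490-3p array, -0.39, -0.13 and -0.93 as reported, became -0.82, -0.33 and -1.22 in the scanner log ratio, -0.60, -0.25 and -1.18 with an offset of 10, -0.55, -0.23 and -1.11 without background subtraction, and -0.29, -0.010 and -0.67 after median centring. The members at or below -1, 1 as reported, became 4, 4, 4 and 0 in that order. The medians of the difference from miR-490-5p, -0.38, -0.12 and -0.85, became -0.86, -0.32 and -1.39 in the scanner log ratio, -0.67, -0.24 and -1.20 with an offset of 10, and -0.64, -0.21 and -1.11 without background subtraction, with 3 members at or below -1 in each, and over the proposed members -0.77 after median centring. Against the other lines the medians, -0.30, -0.14 and -0.68, became -0.58, -0.31 and -1.03 in the scanner log ratio and -0.54, -0.23 and -0.90 with an offset of 10, with 2 members at or below -1 in each. They became -0.55 over all and -0.80 over the proposed members without background subtraction, with 1 member. After median centring the proposed members were at -0.55, and against the 4 renal arrays alone, added after seeing the data, at -0.87. Where both channels had to be well above background on every array, the medians were -0.19 over all and -0.82 over the proposed members, with SORL1 and GPRIN2 left out. The share of all genes with such differences at or below -1 is not given here for the other corrections, so those member counts have no scale. On the array itself that share moved from 0.665% to 3.95% in the scanner log ratio and 0.328% after median centring. Low ratios on this array were a condition for the proposed members, so their medians follow from that choice. With the median over a gene's probes, the proposed members were at -0.79 on the array and -0.66 in the strand difference, and 0 members were at or below -1 on the array. The median of all genes on the miR-490-3p array moved from 0.01 to 0.08 after median centring. Pathway genes past -1 and past 1, 1 and 1 as reported, were 3 and 3 in the scanner log ratio and 0 and 2 after median centring, where their median was 0.20. There were 2 at or above 1 with an offset of 10 and without background subtraction, and 0 at or below -1 with the median over probes. Member probes called with si-GINS1, 3 as reported, were 0 in the scanner log ratio, 0 with a variance trend and robust prior, 0 with the si-GINS1 arrays fitted alone (added after seeing the data), 1 without the filter on dim probes and 4 to 6 with a replicate left out, the lone array being assumed to vary like the other groups. Over all probes the si-GINS1 calls, 1934 as reported, were 75, 0, 0, 1691 and 6671 to 9391 in that order, and 2975 after median centring. The miR-139-5p calls over all probes, 3 as reported, ranged from 0 to 7, and those of miR-139-3p, 0 as reported, from 0 to 13, with 0 member calls in every alternative run. The cause of these changes was not tested. The signs of the 8 members below 0 on the miR-490-3p array held under all corrections but for ERGIC3 after median centring. Ratios of the dim probes of TNKS2, RAB14, TGFBR1 and GPRIN2 are limited by signal over background.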
